A study of Mus musculus with 78 samples.

Results

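The comparison set the liver response to the Snell dwarf mutation against the liver response to loss of the growth hormone receptor. It was taken as a difference of effects, the Snell dwarf group minus its controls, minus the receptor knockout group (GHRKO) minus its controls, in 1 joint fit. The 4 groups held 3 libraries each, so 12 of the 78 libraries of the series entered, and no measured value was used to choose them. The series profiled mouse liver by polyA RNA sequencing under interventions that extend lifespan, among them drugs, diets and the mutants described here. All 12 livers came from males of 5 months on the same Purina 5LG6 diet, and each mutant group was set beside littermate controls of the same age and sex, called biological replicates by the submitters. The receptor knockouts and their controls were of (C57BL/6J x BALB/cByJ)/F2 stock. The Snell dwarfs and theirs were of (PW/J x C3H/HeJ)/F2 stock. Each effect is therefore measured within 1 stock, whereas the mutation and the stock cannot be told apart in the difference between the effects. Both are germline mutations that act in every tissue from before birth, the zygosity of the controls is not given in the sources used here, and no hormone level was analysed here. In bulk tissue, fewer cells of a type and less RNA per cell cannot be told apart.

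Growth hormone from the pituitary binds its receptor on hepatocytes and acts through the kinase JAK2 and the transcription factor STAT5 to switch on Igf1 and the male pattern of liver genes. The Snell mutation disables Pou1f1 (Pit1), the pituitary transcription factor needed for the cells that make growth hormone, thyrotropin and prolactin. Thyrotropin drives the thyroid, whose hormone is converted and sensed in liver by deiodinases and nuclear receptors and raises genes of lipid synthesis and energy metabolism, and prolactin acts on liver through its own receptor and STAT5. A receptor knockout mouse lacks growth hormone action but keeps the cells that make thyrotropin and prolactin.

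The libraries held 15521588 to 18554591 counts assigned to genes, and 13105 genes had enough counts to be tested. Summed hepatocyte markers (10 genes, Alb among them) held 164000 to 200000 CPM (read counts scaled to a common library size) in Snell dwarfs and 158000 to 205000 in knockouts, above the 102000 to 133000 and 104000 to 118000 of their controls. Kupffer cell and macrophage markers (11 genes) held 327 to 574 CPM in knockouts against 174 to 314, and 210 to 450 in Snell dwarfs against 261 to 378, which overlapped. Erythroid markers (7 genes) held 123 to 314 CPM in Snell dwarfs against 355 to 446, while the knockout groups overlapped. No tested member of these 3 marker lists had a called difference, beside 1.16% of all genes, which says little for lists this short. Skeletal muscle markers (10 genes, such as Acta1 and Ckm) held 8458 counts in Snell library 1 and 348 in receptor knockout library 1, against 5 to 17 in the other 10 libraries. Adipocyte markers (6 genes) held 429 counts in receptor knockout library 1 and 190 and 158 in the other knockouts. Ucp1 held 60 counts there and 0 in every other library. In Snell dwarfs the adipocyte markers held 11.1 to 17.1 CPM against 4.68 to 8.37, while the knockout groups overlapped. B lymphocyte and neutrophil markers, at most 6.97 CPM in any library, were above the controls in both genotypes. The part of these markers in the results was not tested. Without Snell library 1, 20 of the 52 called genes named below kept their direction and lost the call (adjusted p 0.0535 to 0.108): Arfgap2, C8g, Car5a, Ces3b, Col6a2, Cyp2c38, Elovl3, Elovl5, Haao, Hal, Khk, Mup14, Ntrk2, Pigr, Prodh, Pygl, Slc22a7, Slc39a4, Smoc2 and Thrsp. Such losses were not particular to that library. Leaving out any other single library lost 8 to 28 of the 52 calls, with 28 lost without knockout library 2. Pancreas markers (10 genes) held 1183 to 1251 counts in the Snell controls, 401 to 752 in the knockout controls and 136 to 220 in the mutants, nearly all from Cela1. Pou1f1, Gh, Prl, Tshb and Tshr had at most 1 count in any library, so the liver counts hold no check of the Snell label through the mutated gene itself.

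The 2 dwarf genotypes changed many of the same liver genes, and the difference between their effects was called for few. With edgeR's quasi-likelihood test and Benjamini-Hochberg adjusted p under 0.05, 2869 genes (21.9%) changed in Snell dwarfs, 1326 up (10.1%) and 1543 down (11.8%). In the receptor knockouts 2296 genes (17.5%) changed, 1079 up (8.23%) and 1217 down (9.29%). Of the 1358 genes called in both, 586 rose in both, 752 fell in both, 16 fell in Snell dwarfs and rose in knockouts, and 4 did the reverse. Across the 13105 genes the effects had a Pearson correlation of 0.734 and a Spearman correlation of 0.603, which is a description over genes that are not independent replicates.

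The difference between the effects passed the same test for 152 genes (1.16%), of which 97 (0.74%) were lower and 55 (0.42%) were higher in the Snell effect. The largest class, 57 genes, fell in Snell dwarfs and was not called in the knockouts, and 33 genes rose in Snell dwarfs without a call in the knockouts. A further 15 fell in both but further in Snell dwarfs, 7 rose in both but further in Snell dwarfs, and 4 fell in both but further in the knockouts. Opposite directions were seen for 15 genes that fell in Snell dwarfs and rose in knockouts and for 4 that did the reverse. The remaining 17 were called in the knockouts and not in Snell dwarfs, 10 rising and 7 falling there. In all 152 genes the 3 Snell libraries, as deviations from their own control mean, lay apart from the 3 knockout libraries, which was also true of 27.9% of all genes tested. The smallest called difference was 0.743 on the log2 scale and 131 of the 152 exceeded 2-fold. The median standard error of a difference was 0.269, and for 7635 genes (58.3%) the 95% interval of the difference lay within 1 log2 unit of 0. The calls varied with single libraries, from 70 without Snell control library 1 to 174 without Snell library 2, and 52 of the 152 genes passed whichever library was left out.

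**Figure D1:**
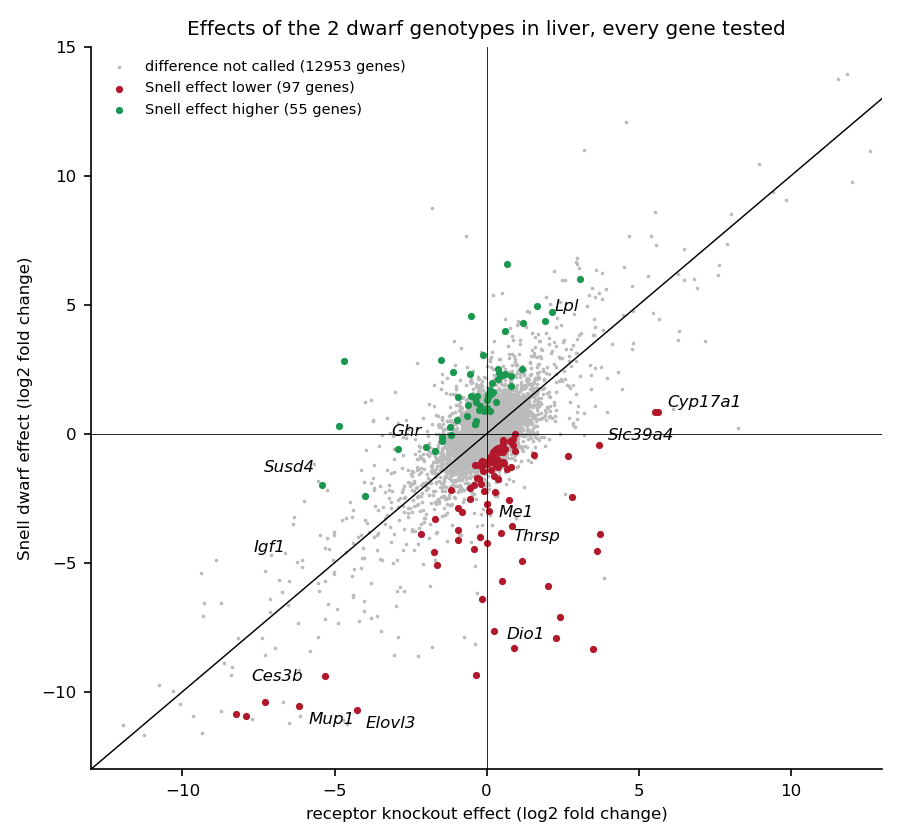
Each point is 1 of 13105 genes, with the receptor knockout effect on the horizontal axis and the Snell dwarf effect on the vertical axis, both as log2 fold changes against own controls; the diagonal marks equal effects. Grey genes had no called difference, and some of them lie far from the diagonal. The 97 red genes lie below it and the 55 green genes lie above it, with Dio1 far below at a knockout effect near 0.

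The receptor gene separated the genotypes. Ghr (ENSMUSG00000055737, chromosome 15, 3317760 to 3583492, minus strand, GRCm38), which encodes the growth hormone receptor, stood at 54.0, 74.4 and 81.7 CPM in the 3 knockout libraries and at 586, 589.7 and 419 in their controls. In Snell dwarfs it stood at 387, 404 and 489.9 CPM, against 661, 660.2 and 621 in their controls. Every knockout library was below every other library, and the Snell libraries were below their own controls but overlapped the knockout controls. Transcript was 7.59-fold lower in the knockouts and 1.52-fold lower in Snell dwarfs, and the effects differed by 2.32 ± 0.24 on the log2 scale (SE, adjusted p = 0.000368). That call held under every alternative tried.

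The growth hormone output genes Igf1, Igfals and Socs2 fell in both genotypes, and none of their differences passed the test. Igf1, the circulating growth factor that liver makes under growth hormone, stood at 11.6, 24.3 and 27.0 CPM in Snell dwarfs and 614, 667 and 589 in their controls. In the knockouts it stood at 7.99, 8.28 and 7.58 CPM, against 514, 624 and 449. Both mutants were far below their controls, and every Snell library was above every knockout library. Igf1 was 29.8-fold lower in Snell dwarfs and 66.5-fold lower in knockouts, and the difference of 1.16 ± 0.34 (95% interval 0.42 to 1.90, adjusted p = 0.172) did not pass the test. It passed with DESeq2 (adjusted p = 0.036), with all 26 groups in the fit (0.00754) and without Snell library 1 (0.004), and the other alternatives gave up to 0.335. Igfals, which holds IGF1 in the circulating complex, was 29.6-fold lower in Snell dwarfs and 33.1-fold lower in knockouts, with a difference of 0.16 (95% interval -0.94 to 1.26, adjusted p = 0.937). For the STAT5 feedback inhibitor Socs2 the effects were -3.33 and -3.98, with a wide interval of the difference from -1.61 to 2.92.

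No member of the insulin-like growth factor list differed between the genotypes by the test, with 0 of 15 called in either direction beside 1.16% of all genes, although the list's median difference was 0.82 against 0.015 over all genes. Igfbp1, a binding protein that rises with low insulin, stood at 317, 971 and 330.0 CPM in Snell dwarfs and 194, 105 and 139 in knockouts, with 1.26 to 4.30 in the 6 controls. All 6 mutant libraries were above all controls and the Snell libraries above the knockout libraries, yet the difference of 2.28 ± 0.76 had an adjusted p of 0.263. Igfbp2 rose by 2.94 in Snell dwarfs and by 1.78 in knockouts (difference 1.16, adjusted p = 0.409). Igfbp7, a matrix-associated binding protein, fell by 1.11 in Snell dwarfs and had a knockout effect of 0.17, and its difference of -1.29 ± 0.29 did not pass (adjusted p = 0.0555). It passed with DESeq2 (0.00238), with all 26 groups in the fit (0.00604) and without knockout library 1 or 3 (0.0385 and 0.045).

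Dio1, Thrsp, Me1 and Gpd2, all induced by thyroid hormone, fell in Snell dwarfs and were not called in the knockouts. Dio1 (ENSMUSG00000034785, chromosome 4, 107291465 to 107307169, minus strand), the liver deiodinase that activates thyroid hormone and is itself induced by it, was nearly lost in Snell dwarfs and kept in knockouts. Its 3 Snell libraries held 0.387, 1.28 and 0.283 CPM, against 177, 96.9 and 109 in their controls. The knockouts held 60.0, 71.1 and 42.9 CPM and their controls 66.4, 66.5 and 13.4. Every Snell library was below every other library, and the knockouts overlapped their controls, of which 1 was low. The Snell effect was -7.65 ± 0.82 (201-fold), the knockout effect 0.25 ± 0.55 and the difference -7.90 ± 0.98 (95% interval -10.12 to -5.67, adjusted p = 0.00857), called under every alternative tried.

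Thrsp (ENSMUSG00000035686, chromosome 7, 97412938 to 97417730, minus strand), the thyroid hormone responsive Spot 14 protein of fat synthesis, followed the same pattern with more spread. It stood at 31.3, 54.9 and 18.0 CPM in Snell dwarfs against 346, 555 and 611 in their controls, and at 393, 451 and 903 in knockouts against 702, 308 and 247. All Snell libraries were lowest, and the knockouts overlapped their controls over a wide range. The difference was -4.34 ± 0.77 (adjusted p = 0.0333), and it missed the threshold in 11 of 17 alternatives, 9 of them with 1 library left out (adjusted p 0.0208 to 0.102 over the libraries).

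Me1 (ENSMUSG00000032418, chromosome 9, 86581371 to 86695953, minus strand), the cytosolic malic enzyme that supplies NADPH for fatty acid synthesis, stood at 49.6, 49.8 and 41.8 CPM in Snell dwarfs and 275, 317 and 338 in their controls. The knockouts held 195, 273 and 197 CPM and their controls 246, 268 and 152. Snell dwarfs were 6.59-fold below their controls with no overlap, while the knockout groups overlapped throughout and had an effect of 0.00 ± 0.19. The difference was -2.72 ± 0.28 (adjusted p = 0.000361) and was called under every alternative. Gpd2 (ENSMUSG00000026827, chromosome 2, 57237635 to 57370719, plus strand), the mitochondrial glycerophosphate dehydrogenase of the shuttle that carries reducing equivalents into mitochondria, held 16.8, 25.0 and 19.2 CPM in Snell dwarfs, against 48.0, 36.6 and 39.2 in their controls. Its knockout libraries held 34.0, 41.3 and 47.5 CPM, against 38.7, 31.6 and 32.5. Snell dwarfs were lowest and the knockout groups overlapped. The difference was -1.28 ± 0.24 (adjusted p = 0.0206). Its call was lost without knockout control library 2, knockout library 2 or Snell control library 1 (up to 0.0577), and with a replicate block in the fit. Exons of Me1 overlap those of an antisense gene, A330041J22Rik, and the kit does not mark strand.

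For the 3 of these 4 genes with the largest differences, the 250 bases before a RefSeq start on GRCm38.p6 are shown. Each is written 5′ to 3′ on the minus strand. The regions are chr4:107307169-107307418 for Dio1, chr7:97417551-97417800 for Thrsp and chr9:86695915-86696164 for Me1. For Me1 the window is that of 1 of its 2 listed starts. The RefSeq starts of Thrsp and Me1 differ from those of the gene positions given above. Measured by those positions, most of the Thrsp window, with its marked match, and a smaller part of the Me1 window lie inside the gene. Capitals mark AGGNCA on either strand, a loose form of the receptor half-site AGGTCA, in which N is any base.
Dio1: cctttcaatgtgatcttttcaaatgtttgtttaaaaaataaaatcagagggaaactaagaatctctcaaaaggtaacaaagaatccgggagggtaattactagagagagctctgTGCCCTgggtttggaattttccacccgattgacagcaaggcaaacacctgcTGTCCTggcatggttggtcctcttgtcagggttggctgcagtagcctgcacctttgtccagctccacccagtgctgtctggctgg
Thrsp: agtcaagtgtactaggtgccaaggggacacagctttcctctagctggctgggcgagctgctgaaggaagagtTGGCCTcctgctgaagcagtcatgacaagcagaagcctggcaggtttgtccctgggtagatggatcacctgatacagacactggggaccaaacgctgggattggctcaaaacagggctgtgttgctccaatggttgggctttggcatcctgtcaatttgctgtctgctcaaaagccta
Me1: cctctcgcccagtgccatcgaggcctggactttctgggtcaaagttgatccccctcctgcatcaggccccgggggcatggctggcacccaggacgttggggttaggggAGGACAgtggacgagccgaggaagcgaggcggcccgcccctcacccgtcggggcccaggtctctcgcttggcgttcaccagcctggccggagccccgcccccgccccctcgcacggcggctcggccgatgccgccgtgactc

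Dio1 holds 2 matches to AGGNCA, Thrsp 1 and Me1 1, and 51.3% of the 32851 promoter windows of this length hold at least 1. The exact half-site AGGTCA, which AGGNCA contains, was in 14% of the windows and the STAT5 letters TTCNNNGAA in 7.02%, and neither was in those of Dio1, Thrsp or Me1. These are letter matches in short windows and say nothing of binding.

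**Figure D2:**
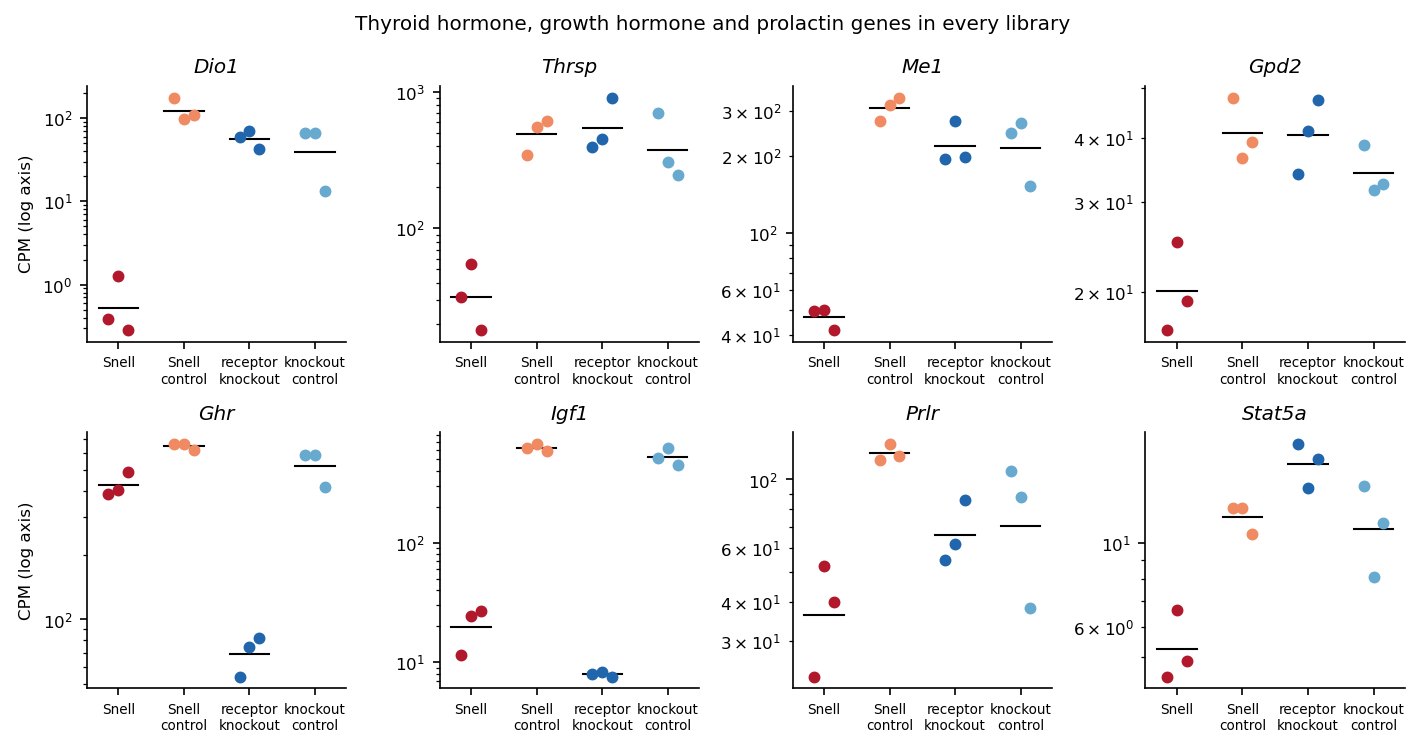
Each panel gives 1 gene and each point 1 library, in CPM on a log axis, with the line at the geometric mean of the 3 libraries. Dio1, Thrsp and Me1 are lowest in the 3 Snell libraries, Ghr is lowest in the 3 knockout libraries, and Igf1 is low in both mutants.

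Among 25 tested genes of the list of thyroid hormone induced genes, the difference was lower for 4 (Dio1, Thrsp, Me1 and Gpd2) and higher for 0, beside 0.74% and 0.42% of all genes. Within the list 9 fell and 2 rose in Snell dwarfs, beside 11.8% and 10.1% of all genes. In knockouts 2 fell and 2 rose, beside 9.29% and 8.23%. Those that fell in Snell dwarfs without a called difference were Bcl3, Klf9, Fasn, Mlxipl and Acly. Fatty acid synthase, Fasn, stood at 279.7, 196 and 386 CPM in Snell dwarfs against 528, 748 and 807, and at 335, 432 and 372 in knockouts against 625, 406 and 297. The Snell groups did not overlap and the knockout groups did, but the difference of -1.05 (95% interval -1.95 to -0.15) had an adjusted p of 0.325. Mlxipl, the carbohydrate response factor ChREBP, fell in both genotypes, by 1.36 and 0.78, and its difference passed with DESeq2 alone (0.0278). Ppargc1a, a coactivator of mitochondrial genes, rose by 3.08 in Snell dwarfs, with 120.3 CPM in library 1, which carried the muscle markers, and 41.5 and 30.8 in the others, and its difference was 2.03 (adjusted p = 0.283) or 1.20 without library 1 (adjusted p = 0.221), and it passed with DESeq2 (0.0208).

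Among 20 receptors, transporters, binding proteins and deiodinases of thyroid hormone, Dio1 was the 1 gene with a called difference, beside 1.16% of all genes. The receptor gene Thra rose by 0.60 in Snell dwarfs, from 13.4 to 14.0 CPM in the controls to 19.2 to 22.6, and had a knockout effect of 0.18 (difference 0.42, adjusted p = 0.315). Its exons overlap Nr1d1 on the other strand. Thrb, the main receptor of liver, gave -0.34 and -0.51 and passed in neither. Slco1a4, an organic anion carrier, rose by 3.27 and 1.82, and Serpina7, the thyroxine-binding globulin, rose by 3.06 and 1.56, with differences of 1.45 and 1.5 that did not pass (adjusted p = 0.173 and 0.391). Slco1a4 passed with DESeq2 (0.0143) and without knockout library 3 (0.0278), and Serpina7 without knockout control library 1 (0.0328). The inactivating deiodinase gene Dio3 was too low to test, with 6, 4 and 10 counts in Snell dwarfs and 0 to 2 in the other 9 libraries.

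Of 16 prolactin and growth hormone signalling genes 2 were called, Ghr as higher and Stat5a as lower, beside 0.42% and 0.74% of all genes. Ghr is itself the gene disrupted in the knockouts. Prlr, the prolactin receptor, stood at 23.0, 52.5 and 40.2 CPM in Snell dwarfs and 116, 130.2 and 119 in their controls, with no overlap. It stood at 54.6, 61.9 and 85.9 CPM in knockouts and 106, 87.4 and 38.3 in their controls, which overlapped. It fell by 1.66 in Snell dwarfs, and the difference of -1.46 ± 0.53 did not pass (adjusted p = 0.294) except with all 26 groups in the fit (0.0356). Stat5a (ENSMUSG00000004043, chromosome 11, 100859351 to 100885169, plus strand), 1 of the pair of STAT5 genes downstream of both receptors, held 4.43, 6.64 and 4.87 CPM in Snell dwarfs against 12.3, 12.4 and 10.5. In the knockouts it held 18.2, 13.9 and 16.7 CPM, against 14.2, 8.14 and 11.3. The Snell libraries were the lowest of the 12 and the knockouts overlapped their controls. The difference was -1.69 ± 0.29 (adjusted p = 0.0158) and was called under every alternative. Stat5b, the main liver form, gave 0.03 and 0.38 and was not called in either genotype. Stat5a shares exon positions with Stat3 on the other strand, and Stat3 rose by 0.67 in Snell dwarfs.

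Of 24 lipogenesis genes 5 were called lower (Me1, Acss2, Acacb, Elovl5 and Thrsp) and 0 higher, beside 0.74% and 0.42% of all genes, and the median difference was -0.58 against 0.015 over all genes. Me1 and Thrsp are on the thyroid hormone list as well. In Snell dwarfs 13 of the 24 fell and 2 rose, beside 11.8% and 10.1% of all genes, and in knockouts 4 fell and 2 rose, beside 9.29% and 8.23%. Acss2, which makes acetyl-CoA from acetate, stood at 94.2, 97.5 and 95.6 CPM in Snell dwarfs against 277, 249.8 and 369, and at 133, 186 and 138 in knockouts against 105, 160.3 and 121. Snell dwarfs lay apart from their controls and the knockouts overlapped theirs, and the difference was -1.88 ± 0.26 (adjusted p = 0.00383). Acacb, the acetyl-CoA carboxylase at the mitochondrial membrane, stood at 15.4, 21.0 and 11.9 CPM in Snell dwarfs against 109, 98.0 and 147. It also fell in knockouts, from 55.7, 74.1 and 49.4 CPM to 31.2, 31.2 and 30.7, and the difference of -1.93 ± 0.30 had an adjusted p of 0.00873 (0.0586 with all 26 groups in the fit). The fatty acid elongase Elovl5 differed by -1.57 ± 0.30 (adjusted p = 0.0267), a call lost in 7 of the 12 fits that left out a library (up to 0.0717). Acss2 shares exon positions with the opposite-strand genes Ggt7, Gss and Acss2os.

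Lipid transport genes moved both ways. Apoc3, the apolipoprotein that slows triglyceride clearance, held 480.1, 470.4 and 760.5 CPM in Snell dwarfs and 1455, 1412 and 1664 in their controls. The knockouts held 1715, 1459 and 1354 CPM and their controls 1356, 1178 and 1522. The Snell libraries were the lowest of the 12 and the knockouts overlapped their controls, and the difference was -1.56 ± 0.26 (adjusted p = 0.0129, called under every alternative). Lpl, lipoprotein lipase, which is normally low in adult liver, rose in both genotypes and more in Snell dwarfs, at 495, 237 and 346 CPM against 18.2, 22 and 12.1. In knockouts it stood at 29.8, 54.0 and 35.8 CPM against 9.71, 11.4 and 10.2. The 3 Snell libraries were the highest of the 12 and the knockouts were above both control groups. The difference of 2.43 ± 0.43 (adjusted p = 0.024) was 2.13 without Snell library 1 and was lost in 8 of 17 alternatives (up to 0.237). On the list of lipoprotein and lipid droplet genes these were the 2 called of 33, beside 1.16% of all genes.

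Male-biased liver genes fell in both genotypes with close medians, and single genes differed in both directions. Of 34 tested, 32 fell in Snell dwarfs and 31 in knockouts, beside 11.8% and 9.29% of all genes, with median effects of -5.21 and -5.27. The difference was lower for 4 and higher for 3, beside 0.74% and 0.42% of all genes. The major urinary proteins, pheromone carriers secreted in bulk by male liver, took 3.6% to 5.39% of all counts in the Snell controls and 2.52% to 4.6% in the knockout controls. In the mutants the share was 0.0312% to 0.0494% and 0.0369% to 0.0568%. Of 19 Mup genes with protein-coding names, all 19 fell in Snell dwarfs and 16 in knockouts, and the difference was lower for 4 and higher for 0. Mup1 held 1.05, 0.830 and 0.962 CPM in Snell dwarfs against 1448, 1603 and 1273, and 8.18, 12.9 and 15 in knockouts against 651, 799 and 1135. Both mutants were far below all controls and Snell dwarfs were below knockouts, and the difference was -4.39 ± 0.36 (adjusted p = 5.57e-05). Mup genes are near-identical copies whose reads the counting could split or drop, and their copy number can differ between stocks, so single members are uncertain.

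Elovl3, a male-biased elongase of very long fatty acids, had 0.166, 0 and 0.283 CPM in Snell dwarfs against 391, 197 and 230.2, and 1.52, 3.43 and 6.41 in knockouts against 47.4, 72.9 and 100.4. All mutants were below all controls, and the Snell libraries below the knockouts, with effects of -10.71 and -4.27. The difference of -6.44 ± 0.98 (adjusted p = 0.017) was lost without Snell library 1 (0.0626), and the exons overlap Pitx3. Cyp2f2, a cytochrome P450 of the periportal zone, fell further in Snell dwarfs, to 114, 81.6 and 49.3 CPM from 1472, 1521 and 1279.9. In knockouts it held 675, 676 and 718 CPM against 1260.0, 1418 and 1293. The 4 groups kept the order Snell, knockout and both controls with no overlap between mutants and controls, and the difference was -3.19 ± 0.32 (adjusted p = 0.000272).

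Other male-biased genes fell further in the knockouts. Susd4, a complement regulator, held 0.924, 1.36 and 1.10 CPM in knockouts against 61.5, 41.0 and 43.9, and 21.6, 16.1 and 14.9 in Snell dwarfs against 80.6, 72.7 and 55.5. Every knockout library was below every Snell library, and the difference was 3.43 ± 0.32 (adjusted p = 0.000173). The complement component C8b held 61.8, 91.7 and 86.9 CPM in Snell dwarfs and 23.2, 17.4 and 27.8 in knockouts, against 339 to 458 in the 6 controls, and the difference was 1.60 ± 0.25 (adjusted p = 0.00864). Susd4 and C8b were called under every alternative. Cyp2d9, a testosterone hydroxylase named here after its values were seen, was the remaining male-biased gene with a higher difference (1.05 ± 0.23, adjusted p = 0.0459). Its call was lost in at least 1 fit that left out a library.

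Female-biased genes mostly rose in both genotypes, 17 of 27 in Snell dwarfs and 18 in knockouts, beside 10.1% and 8.23% of all genes. The median effects were 3.61 and 2.93, while 3 of the 27 fell in Snell dwarfs and 2 in knockouts. The difference was lower for 2 and higher for 0, beside 0.74% and 0.42% of all genes. Cyp17a1, the steroid 17-hydroxylase and lyase, rose in the knockouts to 86.8, 136 and 160.4 CPM from 2.82, 3.10 and 1.75. In Snell dwarfs it held 12.2, 16.5 and 8.71 CPM against 5.62, 11.1 and 3.88, and the groups overlapped. The knockouts were the highest of the 12 libraries by far, and the difference of -4.78 ± 0.58 (adjusted p = 0.00482) was called under every alternative. Ntrk2, a neurotrophin receptor at low level here, held 0.0566 to 0.609 CPM in Snell dwarfs against 3.35 to 7.64 in their controls, and 1.12 to 3.65 in knockouts against 0.651 to 1.70. Its difference was -4.40 ± 0.86 (adjusted p = 0.0326, lost in 9 of the 12 fits that left out a library, up to 0.0815, and with all 26 groups in the fit, 0.313).

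Of the genes with the largest changes in the same direction in both genotypes, Hsd3b5, a male-specific steroid dehydrogenase, fell from 418 to 524 CPM to 0.447 to 0.622 in Snell dwarfs and from 221 to 408 to at most 0.367 in knockouts. Its difference of 1.02 was not called (adjusted p = 0.651). Mup7, Mup10, Mup12 and Mup14 made up the other leading falls, and the difference was called for Mup10 (-3.03, adjusted p = 0.00186) and Mup14 (-2.64, adjusted p = 0.0184), the latter lost without knockout library 2, Snell control library 2 or Snell library 1 (up to 0.0603) and with all 26 groups in the fit (0.313). The leading rises were Cyp2b13, Sult1e1, Sult2a2, Sult2a5 and the metal-binding Mt2. Cyp2b13 reached 454 to 825 CPM in Snell dwarfs and 1207 to 1285 in knockouts from at most 6.29 in any control. The sulfotransferases Sult2a2 and Sult2a5 had 0 counts in the 3 Snell controls, so they were at least 1610-fold and 1840-fold higher in Snell dwarfs, taking 3 counts over the group as the floor. The differences for the 5 genes had adjusted p values of 0.737 to 0.999, with intervals as wide as -9.90 to 9.82 for Sult1e1, so equal effects were not shown.

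**Figure D3:**
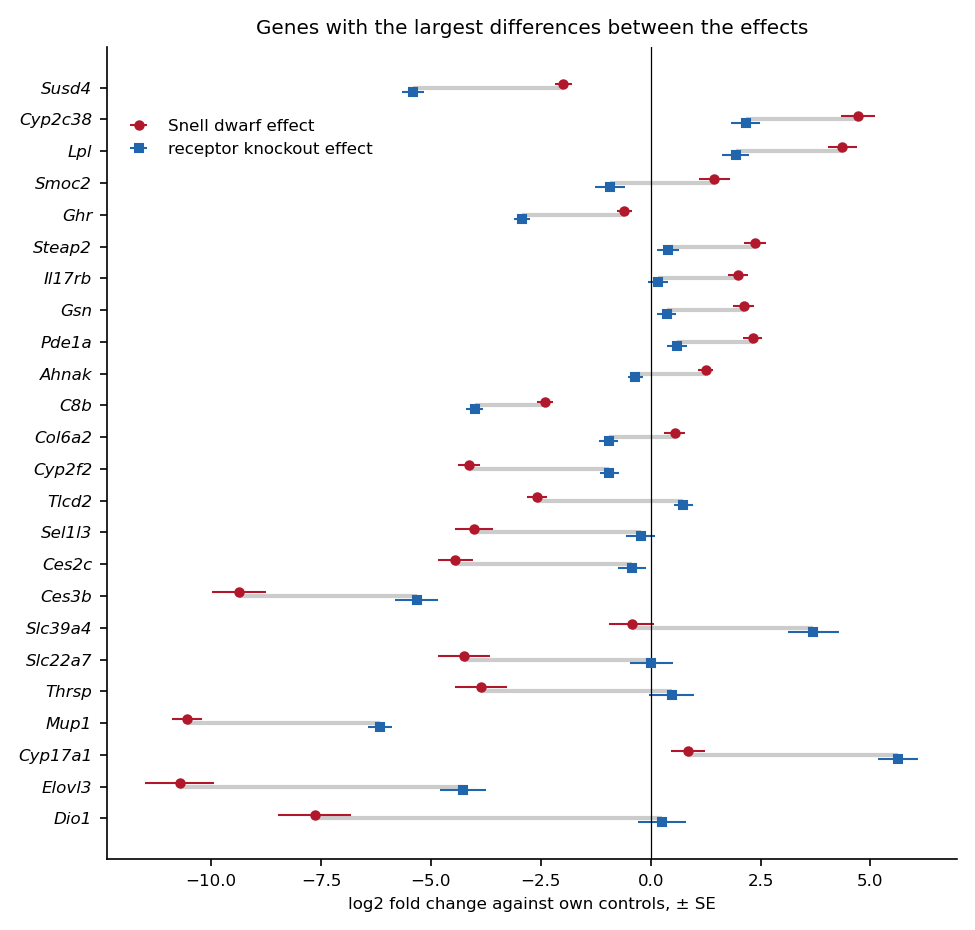
The Snell dwarf effect (circles) and the receptor knockout effect (squares) are shown as log2 fold changes with standard errors for the 24 genes with the largest called differences, sorted by the difference. The squares of Dio1, Thrsp, Slc22a7, Ces2c and Sel1l3 lie near 0, whereas those of Cyp17a1 (5.63) and Slc39a4 (3.70) lie far to the right of their circles.

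Slc22a7, Ces2c and Sel1l3 fell in Snell dwarfs and were not called in knockouts. Slc22a7 (OAT2), an organic anion transporter, held 2.10, 9.13 and 1.41 CPM in Snell dwarfs against 81.0, 98.2 and 57.4, and 39.9, 41.2 and 59.9 in knockouts against 38.7, 43.9 and 56.7. The Snell libraries were the lowest of the 12 and the knockouts overlapped their controls, and the difference was -4.27 ± 0.76 (adjusted p = 0.0336, lost in 10 of the 12 fits that left out a library, up to 0.0938). The carboxylesterase Ces2c held 2.32, 2.23 and 1.02 CPM in Snell dwarfs and 25.8 to 61.0 in the other 9 libraries, with a difference of -4.02 ± 0.51 (adjusted p = 0.0048). Ces3b fell in both genotypes, by 9.37 and 5.33, and the difference of -4.05 (adjusted p = 0.0216) was lost in 7 of the 12 fits that left out a library (up to 0.0658). Ces genes are a cluster of similar copies, so reads could be split among them. Sel1l3 held 0.453 to 1.27 CPM in Snell dwarfs and 12.5 to 33.2 elsewhere, with a difference of -3.79 ± 0.56 (adjusted p = 0.00998). Ces2c and Sel1l3 were called under every alternative.

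Tlcd2, a TLC-domain membrane protein, fell in Snell dwarfs to 10.8, 22.1 and 19.0 CPM from 117, 105 and 88.3 and rose in knockouts to 137, 100.4 and 124 from 79.3, 72.0 and 64.8. The mutants moved to opposite sides of their controls with no overlap, and the difference was -3.33 ± 0.31 (adjusted p = 0.000258, called under every alternative). Its exons overlap Mir22hg on the same strand, so the reads could come from either gene. For the zinc importer Slc39a4 the group apart was the knockout controls, at 13.7, 2.57 and 3.34 CPM, while knockouts held 101, 65.6 and 87.4 and the Snell groups 36.6 to 73.2. The Snell groups overlapped (effect -0.43), and the difference of -4.13 ± 0.76 (adjusted p = 0.0398) was lost in 11 of the 12 fits that left out a library (up to 0.11).

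Genes with a higher Snell effect included enzymes of drug metabolism. Cyp3a11, the main CYP3A of mouse liver, rose to 11350.2, 12591 and 10943 CPM in Snell dwarfs from 4475, 3139 and 4308, and held 7778, 6727 and 6033 in knockouts against 6216, 7044 and 5384. The Snell libraries were the highest of the 12 and the knockouts overlapped their controls. The difference was 1.41 ± 0.24 (adjusted p = 0.0128), lost with all 26 groups in the fit (0.476). Cyp2c38 rose in both, by 4.72 and 2.16, with a difference of 2.56 ± 0.48 (adjusted p = 0.0326) that was lost in 10 of the 12 fits that left out a library (up to 0.099). Aldh1a1, the retinal dehydrogenase, was the member called lower, at 494, 856 and 928 CPM in Snell dwarfs and 1245 to 1993 elsewhere (difference -1.33, adjusted p = 0.0433, lost in 9 of the 12 fits that left out a library, up to 0.115). On the drug and steroid metabolism list of 30 genes these made 2 higher and 1 lower, beside 0.42% and 0.74% of all genes. Of the 30, 17 rose in Snell dwarfs and 10 in knockouts, beside 10.1% and 8.23% of all genes. The peroxisome proliferator target Cyp4a32 rose by 2.26 and 0.81 (difference 1.44 ± 0.19, adjusted p = 0.00211, lost with all 26 groups, 0.626). It was the only 1 called of 36 genes of fatty acid oxidation, beside 1.16% of all genes. Cyp2c, Cyp3a and Cyp4a genes are clusters of similar copies.

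Il17rb, Gsn, Steap2, Pde1a and Ahnak also had higher Snell effects, rising in Snell dwarfs without a call in knockouts. The cytokine receptor subunit Il17rb held 31.0, 17.1 and 22 CPM in Snell dwarfs and 4.80 to 11.6 elsewhere (difference 1.81 ± 0.32, adjusted p = 0.0168), and its exons overlap Actr8. The actin-severing protein gelsolin, Gsn, held 48.0, 50.7 and 78.5 CPM in Snell dwarfs against 18.0, 11.4 and 11.6, and 38.9 to 42.7 in knockouts against 26.3 to 39.0. Its Snell controls were the lowest of the 4 groups, and the difference was 1.75 ± 0.31 (adjusted p = 0.0195). The metalloreductase Steap2 held 11.9 to 22 CPM in Snell dwarfs and 2.44 to 4.62 elsewhere, the phosphodiesterase Pde1a 10.5 to 14.3 and 2.31 to 4.64, and the scaffold protein Ahnak 17.4 to 26 and 6.96 to 12.3. In these 3 genes the Snell libraries lay above all 9 others. The differences were 1.97 for Steap2, 1.72 for Pde1a and 1.60 for Ahnak (adjusted p = 0.017, 0.0183 and 0.00775). The call for Il17rb was lost without knockout control library 2, knockout library 2 or Snell control library 1 (up to 0.0587), that for Steap2 without the last 2 of these (up to 0.0577), that for Pde1a without Snell control library 1 or 2 (up to 0.0577), and that for Gsn without 4 of the libraries in turn (up to 0.0581). Ahnak kept its call whichever library was left out. With all 26 groups in the fit the calls for Ahnak, Gsn, Steap2 and Pde1a were lost (0.143, 0.354, 0.102 and 0.109). Leaving out Snell library 1 changed none of the calls for Il17rb, Gsn, Steap2, Pde1a and Ahnak, whereas those for Smoc2 (2.37 ± 0.49, adjusted p = 0.0363) and Col6a2 (1.5 ± 0.32, adjusted p = 0.0433), both matrix proteins, were lost without it (0.0603 and 0.0874) and in 8 and 10 other fits that left out a library. The calls for Smoc2 and Col6a2 were also lost with a replicate block, and that for Col6a2 with all 26 groups in the fit (0.0953).

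Of 27 collagen and matrix genes Col6a2 was the only 1 called, beside 1.16% of all genes. In knockouts 5 of the 27 fell, beside 9.29% of all genes, and in Snell dwarfs 2 fell and 2 rose, beside 11.8% and 10.1%. Col6a2 held 4.81, 3.89 and 4.98 CPM in Snell dwarfs against 3.22, 3.55 and 2.63, and 4.42, 4.19 and 3.18 in knockouts against 6.40, 6.51 and 10.1. The knockouts were below their controls and the Snell dwarfs above theirs. Stellate cell markers (9 genes) summed to 250 to 395 CPM in Snell dwarfs, 278 to 312 in their controls, 295 to 448 in knockouts and 267 to 397 in theirs, which overlapped, and their part in the result was not tested.

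Uck1, uridine-cytidine kinase of pyrimidine salvage, also changed in opposite directions. It held 20.2, 21.2 and 18.5 CPM in Snell dwarfs against 49.5, 38.8 and 37.8, and 62.0, 57.9 and 55.5 in knockouts against 42.7, 38.6 and 39.4. The 2 control groups overlapped each other and the mutants lay on either side of both. The difference was -1.61 ± 0.17 (adjusted p = 0.000361, called under every alternative). Uck1 shares exon positions with Pomt1 on the other strand, which was called in the same direction. Cyp2c68 fell from 98.3 to 109 CPM to 56.6 to 80.0 in Snell dwarfs and rose from 82.9 to 125 to 177 to 225 in knockouts (difference -1.6 ± 0.23, adjusted p = 0.00508, or 0.0503 with all 26 groups in the fit). The protease inhibitor Cstb, the mitochondrial carbonic anhydrase Car5a and the polymeric immunoglobulin receptor Pigr showed the same pattern, with differences of -1.22, -1.19 and -0.97 (adjusted p = 0.0168, 0.0345 and 0.0433). The call for Cstb was lost without knockout library 2 (0.0523), and those for Car5a and Pigr in 10 and 11 of the 12 fits that left out a library (up to 0.115). That for Car5a was also lost with all 26 groups in the fit (0.182), and that for Pigr with a replicate block. In the reverse direction Itih3, a plasma hyaluronan-binding protein, held 877, 1103 and 788 CPM in Snell dwarfs against 512, 615 and 573, and 441, 373 and 518 in knockouts against 618, 598 and 881. Arfgap2, a coat protein regulator, and Snd1, an RNA-binding nuclease, rose by 0.39 and 0.38 in Snell dwarfs and fell by 0.40 and 0.39 in knockouts. The differences for Itih3, Arfgap2 and Snd1 were 1.36, 0.78 and 0.77 (adjusted p = 0.0227, 0.0264 and 0.0374). These calls were lost in 4, 8 and 11 of the 12 fits that left out a library. That for Snd1 was also lost with all 26 groups in the fit (0.139), with no filter and with a replicate block. Arfgap2 shares exon positions with 1110051M20Rik.

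**Figure D4:**
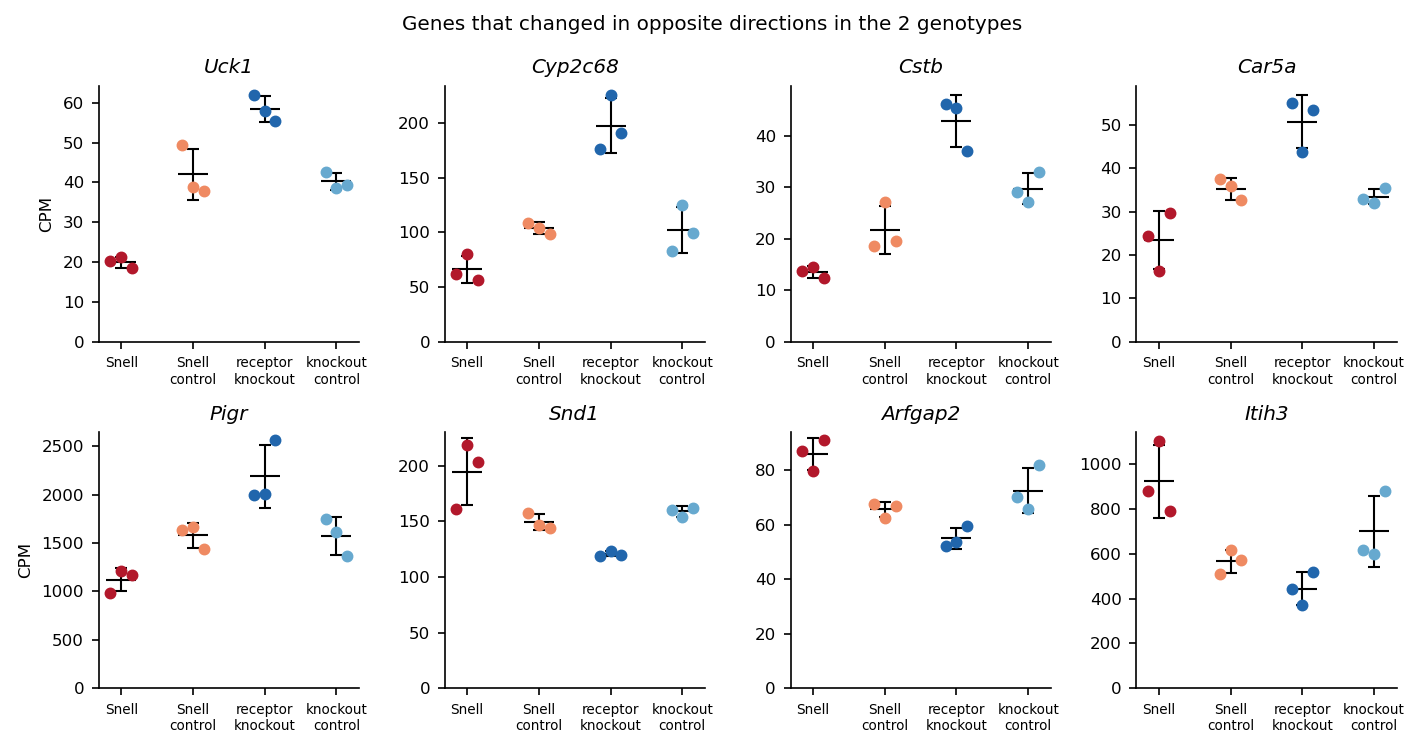
Each panel gives 1 gene and each point 1 library, in CPM on a linear axis from 0, with the group mean and SD (n = 3). The top row and Pigr are lowest in Snell dwarfs and highest in knockouts, and Snd1, Arfgap2 and Itih3 show the reverse order.

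Among 32 genes of amino acid breakdown and the urea cycle, 3 had a called difference, all lower (Hal, Prodh and Haao), beside 0.74% of all genes. In knockouts 18 of the 32 rose, beside 8.23% of all genes, and in Snell dwarfs 8 rose, beside 10.1%. Hal, the histidine ammonia-lyase, held 586, 653 and 539 CPM in knockouts against 393, 305 and 279, and 236, 217 and 293 in Snell dwarfs against 246, 284 and 333. The knockouts were highest of the 12, and the Snell groups overlapped. Prodh, the proline dehydrogenase, and Haao, of tryptophan breakdown, rose by 0.76 and 0.55 in knockouts and were not called in Snell dwarfs. The differences for the 3 genes were -1.07, -1.04 and -0.90 (adjusted p = 0.0439, 0.0363 and 0.0433). In glucose metabolism the fructokinase Khk also rose in knockouts alone, to 719, 769 and 729 CPM from 439, 359 and 362, with a Snell effect of 0.01 (difference -0.92, adjusted p = 0.0433). The liver glycogen phosphorylase Pygl fell in Snell dwarfs alone, by 1.09 (difference -1.12, adjusted p = 0.0326). Ppp1r3g, which directs phosphatase to glycogen, rose further in Snell dwarfs (27.6 to 63.3 CPM) than in knockouts (4.22 to 5.01) from under 1 CPM in every control (difference 2.94, adjusted p = 0.0496). Each of these 6 calls was lost in 7 to 11 of the fits that left out a library, and with a replicate block. With all 26 groups in the fit those for Hal, Prodh, Haao, Khk and Ppp1r3g were lost (0.329, 0.135, 0.237, 0.26 and 0.492). In glucose metabolism, 28 genes, these were the 1 higher and 2 lower calls, beside 0.42% and 0.74% of all genes.

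For 15 of the 30 lists no member had a called difference, which at these standard errors does not show equal effects. Endoplasmic reticulum chaperones fell in both, 14 of 21 in each, beside 11.8% and 9.29% of all genes, with median effects of -0.73 and -0.67. Nuclear genes of the respiratory chain and ATP synthase rose in both, 38 of 77 in Snell dwarfs and 70 in knockouts. The shares over all genes were 10.1% and 8.23%, and the median effects of the list were 0.37 and 0.58. Their difference was negative for 71 of the 77, with 0 called. Among 79 cytosolic ribosomal protein genes 14 rose in Snell dwarfs and 2 in knockouts, beside 10.1% and 8.23% of all genes. Interferon response genes had the lowest median difference of the 30 lists, -0.69 over 32 genes. Of these 14 fell in Snell dwarfs and 4 in knockouts, beside 11.8% and 9.29% of all genes. Ifit1, named here after its values were seen, had the largest single gap there (-2.07), and 0 of the 32 were called. The other lists without a call were cholesterol synthesis and uptake, bile acid synthesis and transport, the citric acid cycle, the proteasome, heat shock genes, NRF2 targets and glutathione metabolism, methionine and one-carbon metabolism, the circadian clock, the cell cycle and iron handling. Complement and coagulation genes gave 1 higher call, C8b, and 1 lower, C8g (-1.22, adjusted p = 0.0426, or up to 0.113 with a library left out), of 36. The shares over all genes were 0.42% and 0.74%.

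**Figure D5:**
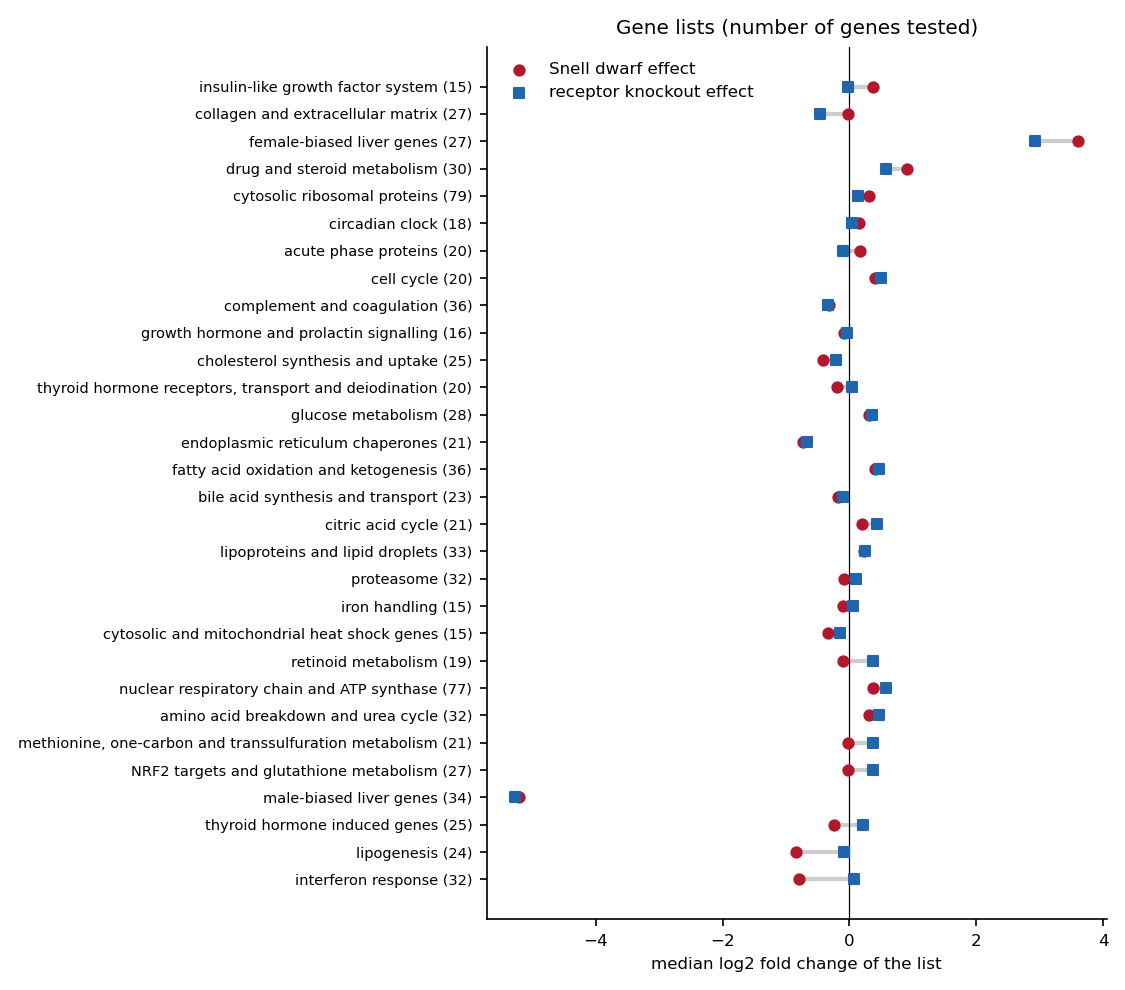
Median Snell dwarf effect (circles) and median receptor knockout effect (squares) of the genes tested in each of 30 lists, in log2 units, with the number of genes in brackets, sorted by the median difference. Male-biased genes lie at -5.21 and -5.27 and female-biased genes at 3.61 and 2.93, and the circles of the lipogenesis and interferon lists lie to the left of their squares.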

How the data were processed

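Liver polyA RNA libraries were made with the Illumina TruSeq RNA v2 kit, which does not mark strand, and sequenced as paired ends, per the labels' protocols. The authors deposited 1 table of raw read counts per gene for all 78 libraries. Its making names bcl2fastq 1.8.4, Trimmomatic 0.32, STAR 2.5.2b, featureCounts 1.5 and the build GRCm38 (mm10), per the submitters' processing notes, and the counting options are not given in the sources used here. The table holds 43629 genes by Ensembl identifier, of which 42462 were given a symbol from the reference tables.

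The 12 libraries were fitted together with edgeR 4.0.16 (R 4.3.3), using TMM scaling, filterByExpr and robust quasi-likelihood dispersions, with 1 coefficient per group and no covariate. The tests were the contrast of effects and the effect of each mutant, with Benjamini-Hochberg adjustment over all 13105 genes tested and a threshold of 0.05. A call means an adjusted p below it. CPM are counts scaled to TMM-adjusted library sizes and not to gene length, so levels are compared within a gene and not between genes. Fold changes are log2 values from the fit, errors are standard errors, and intervals are at 95%. The standard errors were derived as the absolute log2 fold change over the square root of the test's F statistic. The intervals were built from them, so both are approximate. The p-values measure the spread between 3 libraries a group.

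The comparison and the 30 gene lists were chosen with earlier results of these data known. Named genes were the 12 largest called differences per direction with mean log2 CPM of at least 2, up to 4 called genes per list, the hormone lists, up to 6 genes per direction called in opposite directions, and the 5 largest shared changes per direction. Genes named otherwise are said to be chosen after their values were seen. Of 952 listed symbols 948 matched the table. Alternatives were DESeq2 1.42.0, RLE scaling, no filter, a replicate block, all 26 groups in the fit and leaving out each library. Replicate numbers were compared across the groups and showed no clear pairing, which these few libraries cannot exclude.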

Additional observations from a re-analysis of the deposited data

How the results depend on the processing

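All 152 called differences kept their sign under each of the 17 alternatives, and 42 of the 152 were called under all of them. The number called was 157 with RLE scaling, 196 with no filter on low counts and 161 with all 26 groups in the fit, sharing 151, 141 and 94 genes with the 152. DESeq2 called 377, among them all 152. Leaving out 1 library gave 70 to 174, below the rest without Snell control library 1 (70), knockout library 2 (72), Snell control library 2 (85), knockout control library 2 (89) and Snell library 1 (97, sharing 82). The Snell dwarf effect gave 1796 to 3101 calls and the receptor knockout effect 1353 to 2483 when 1 library was left out, with the lowest without Snell control library 1 and knockout library 1, and 1413 for the latter effect without knockout control library 2. The correlation of the effects across genes was 0.58 with all 26 groups and 0.357 with no filter, and 0.691 to 0.717 with 1 library left out. The filter alternative adds genes with few counts, and the cause of the other shifts was not tested. Same-numbered libraries showed no clear shared deviation (18 correlations from -0.128 to 0.122), which with 3 libraries a group does not exclude pairing. The fit with a replicate block called 107 genes, sharing 96 with the 152. Of 6 mutants and controls with the same number, 2 correlated best with their own number. With 3 libraries a group the median standard error of a difference was 0.269 log2 units and the smallest called difference 0.743, so smaller differences were mostly not detectable.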

Other observations

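Genes outside the naming rule, chosen after their values were seen, extended the set that fell in Snell dwarfs. Trhde, which degrades thyrotropin-releasing hormone and is induced by thyroid hormone, had 0 counts in the 3 Snell libraries and 235 in their controls, at least 81.5-fold lower taking 3 counts over the group as the floor. It held 0.396, 2.45 and 3.54 CPM in knockouts and 3.15, 2.99 and 2.09 in their controls, which overlapped, and the difference was called (adjusted p = 0.0177). The estrogen receptor gene Esr1 held 0.830, 1.60 and 1.13 CPM in Snell dwarfs against 13.6, 18.6 and 14.9, and 6.14, 6.26 and 6.05 in knockouts against 11.2, 14.0 and 10.3. It fell in both, further in Snell dwarfs (difference -2.79 ± 0.30, adjusted p = 0.000395). The natriuretic peptide receptor gene Npr2 fell by 3.88 and 2.17 (difference -1.71 ± 0.28, adjusted p = 0.0101).

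Further genes differed in the same test. Abcd3, a peroxisomal membrane transporter, held 302, 382 and 321 CPM in Snell dwarfs against 696, 651 and 714, and 747, 775 and 726 in knockouts against 669, 622 and 481 (difference -1.38 ± 0.19, adjusted p = 0.00455). Lonp2, the peroxisomal protease, and the selenoprotein Gpx1 had differences of -0.93 and -0.92 (adjusted p = 0.0301 and 0.0348). In the other direction Cldn2, a tight junction protein, fell in knockouts to 33.7, 35.8 and 53.8 CPM, with 88.0 to 122 in the other 9 libraries (difference 1.31 ± 0.24, adjusted p = 0.0183). Cela1, the source of nearly all the pancreas marker counts, fell in both genotypes by 3.29 and 1.70 (difference -1.59, adjusted p = 0.0246). The differences for Esr1, Npr2 and Abcd3 were called whichever library was left out, whereas those for Trhde, Lonp2, Gpx1, Cldn2 and Cela1 were lost in at least 1 such fit.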
